A study of Caenorhabditis elegans with 37 samples.

Results

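AVE and AVG are interneurons of the ventral nerve cord of the nematode Caenorhabditis elegans, and their transcriptomes were set against each other here. The libraries were taken by the cell type named in their sample titles: 3 AVE libraries (AVE 40, 41 and 42) and 3 AVG libraries (AVG 43, 44 and 45), 6 of the 37 libraries of the series. Of the others, 5 pan-neuronal libraries, sorted by the rab-3 marker, and 4 all-cell libraries, sorted only as live cells, are given for orientation. Per the labels, untreated worms grew on 8P plates with NA22 bacteria, and dissociated cells were sorted by FACS (fluorescence-activated cell sorting) straight into Trizol LS. The labels give no strain, genotype, reporter, stage or age for either type, nor whether each library had a culture of its own. The p-values rest on the spread between libraries of a group, estimated over all 37 libraries and not from AVE and AVG alone. That spread may be technical.

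AVE is a bilateral pair of command interneurons in the head. It sends axons down the cord and, with AVA and AVD, drives backward locomotion through the motor neurons, and it receives glutamate signals through AMPA-type and NMDA-type receptors. AVG is a single neuron of the retrovesicular ganglion whose axon is the first to grow along the right tract of the cord, and later axons follow it. Both are cholinergic and both use glr-1, the AMPA-type receptor subunit gene by which command interneurons are often marked, whereas inx-18, a gene of the innexins that form gap junctions, marks AVG. The homeobox factor UNC-42 and the nuclear receptor FAX-1 are known regulators of AVE identity, and the LIM homeobox factor LIN-11 of AVG differentiation.

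Of 15181 genes tested, 1913 (12.6%) passed the edgeR quasi-likelihood test at an adjusted p under 0.05. AVE had 1136 genes higher (7.48%) and 777 lower (5.12%) than AVG. The groups did not overlap in 1800 of the called genes, and in 28.1% of all genes tested. Genes higher in AVE included the tyramine synthesis gene tdc-1, the GABA receptor gene unc-49, and the neuropeptide genes flp-19 and nlp-13, and genes lower in AVE included nmr-2, acr-5, acr-24, frpr-14, lite-1 and ags-3. Levels are in CPM, a gene's counts per 1000000 counts of its library after scaling by the TMM factor, and differences are AVE minus AVG on the log2 scale ± SE. Each gene list is counted over its members that passed the low-count filter, and members below it were not tested: 74 of 95 homeobox genes, 27 of 39 insulin-like genes and 235 of 1297 chemoreceptor genes were. Where leaving out 1 library moved a list's count by more than 1.5 times, the count without that library stands beside it. In a bulk sample, fewer cells of a type and less RNA per cell cannot be told apart.

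**Figure D1:**
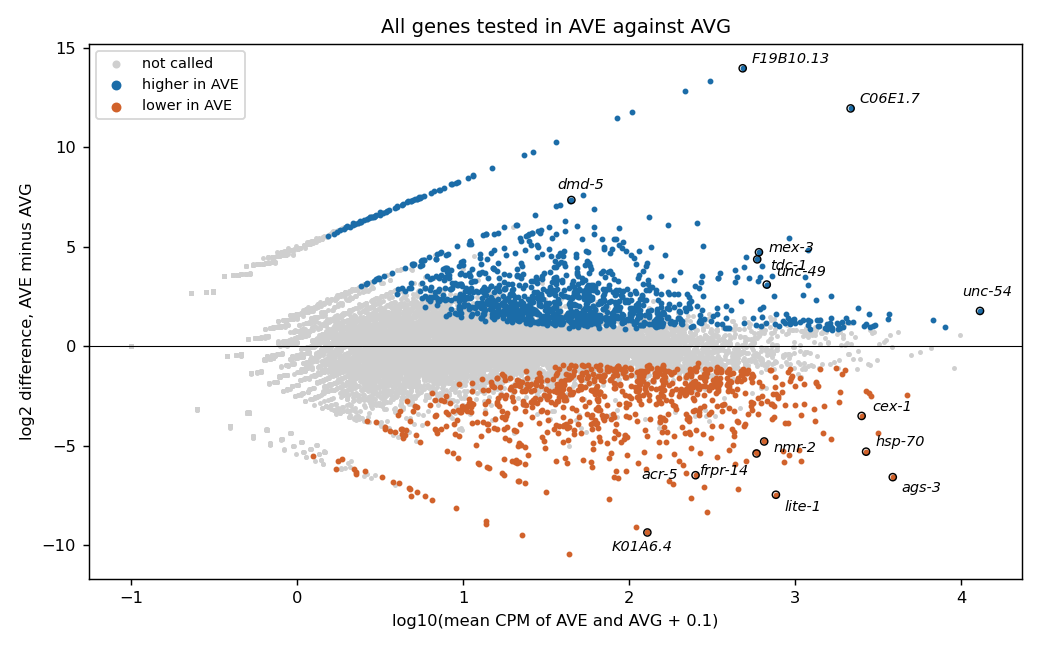
All 15181 genes tested in AVE against AVG. The x axis is log10 of the mean CPM of both types plus 0.1, the y axis is the log2 difference AVE minus AVG, and each point is 1 gene, with 1136 called higher (blue) and 777 called lower (orange). The bands of points rising to the upper right and falling to the lower right are genes with no or few counts in 1 type, whose fitted differences are no measure of size.

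The libraries held 1018160, 823213 and 1231770 counts in AVE, against 1106751, 435104 and 533512 counts in AVG. Within the types the libraries differed. AVE 40 had the highest AVE value in 679 of the 1136 higher genes and AVE 42 the lowest in 637, while AVG 45 had the highest AVG value in 591 of the 777 lower genes and AVG 43 the lowest in 579. Genes of the pan-neuronal list took 0.841%, 0.879% and 1.17% of the AVE counts, against 1.55%, 1.85% and 3.19% of the AVG counts. The pan-neuronal libraries ran from 2.96% to 3.81% and the all-cell libraries from 0.361% to 1.03%. Transcript length moved with the type as well: the median difference was 0.33 in the shortest of 5 length classes of protein-coding genes and -0.22 in the longest. The longest class took 27.5% to 35.7% of the counts of the AVE libraries, against 37.4% to 46.7% in AVG. With a length trend taken out of each library, 668 genes were higher and 894 lower, so the higher share of the calls was 42.8% instead of 59.4%. In the fit of the 6 libraries alone it was 49.3%. Without AVE 40, 1116 genes were called. Both pairs of libraries at the extremes were also left out, a choice made after seeing the data: 736 genes were called without AVE 40 and AVG 45, and 660 without AVG 43 and AVG 45, where the lone AVG library is assumed to vary like the other groups. The part of depth, length or single libraries in any result was not tested beyond these alternatives.

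Of the marker genes of the cell types, 3 of 4 AVE markers were higher and 2 of 5 AVG markers lower in AVE. Over all genes tested, 7.48% were higher and 5.12% lower. None of these markers was called against its label. Of the AVE markers, unc-42 had 185, 132 and 208 CPM in AVE, against 10.6, 2.46 and 0 CPM in AVG. Every AVE library lay far above every AVG library (log2 difference 4.94 ± 0.89, adjusted p = 0.000161). The peptide transporter gene pept-3 had 142, 189 and 297 CPM in AVE, against 38, 14.7 and 0 CPM in AVG, again without overlap (3.41 ± 0.58, adjusted p = 7.96e-05). The nuclear receptor gene fax-1 had 50.9, 44.1 and 66.4 CPM in AVE and a single count over the 3 AVG libraries, an AVE over AVG ratio of summed counts of 109 (95% interval 19.3 to 4330). The fourth AVE marker, the FMRFamide-like peptide gene flp-1, was low in both types, at 20.6, 47.9 and 21.9 CPM in AVE, against 52.2, 41.7 and 19.3 CPM in AVG, and did not pass (-0.37 ± 0.71, adjusted p = 0.829). The 5 pan-neuronal libraries averaged 3274 ± 299.9 CPM of flp-1 (SD, n = 5).

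Of the AVG markers, inx-18 (chromosome IV, 606355 to 614062 in the WBcel235 annotation) had 5.42, 15.1 and 7.81 CPM in AVE, against 46.9, 78.6 and 118 CPM in AVG. It was lower in AVE (-3.10 ± 0.63, adjusted p = 0.000692). The ETS factor gene ast-1, which stood at 5.42, 8.82 and 10.9 CPM in AVE, against 219, 327 and 537 CPM in AVG, was lower too (-5.40 ± 0.55, adjusted p = 2.66e-08). The AVG regulator gene lin-11 was present in both, at 272, 171 and 239.8 CPM in AVE, against 316, 422 and 676 CPM in AVG. Its groups did not overlap, but it did not pass (-1.05 ± 0.58, adjusted p = 0.272), nor did odr-2, a gene of a membrane-linked Ly-6 protein (-0.39 ± 0.43, adjusted p = 0.647), or the netrin gene unc-6 (-0.20 ± 0.49, adjusted p = 0.881). Among genes known from both neurons, glr-1 did not pass. It had 196, 81.9 and 298 CPM in AVE, against 121, 427 and 929 CPM in AVG, with the AVG libraries spread over the AVE range and above it (-1.35 ± 0.74, adjusted p = 0.268). Of the 7 genes known from both, 3 cholinergic genes were higher in AVE (cha-1, unc-17 and cho-1) and 3 glutamate receptor genes lower (nmr-1, nmr-2 and glr-2). The shares over all genes tested were 7.48% higher and 5.12% lower. Of the 7, there was 1 higher without AVE 41, AVE 42, AVG 44 or AVG 45. The call of inx-18 ended without AVE 40 and AVG 45 together, and that of fax-1 without AVG 43 and AVG 45 together.

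**Figure D2:**
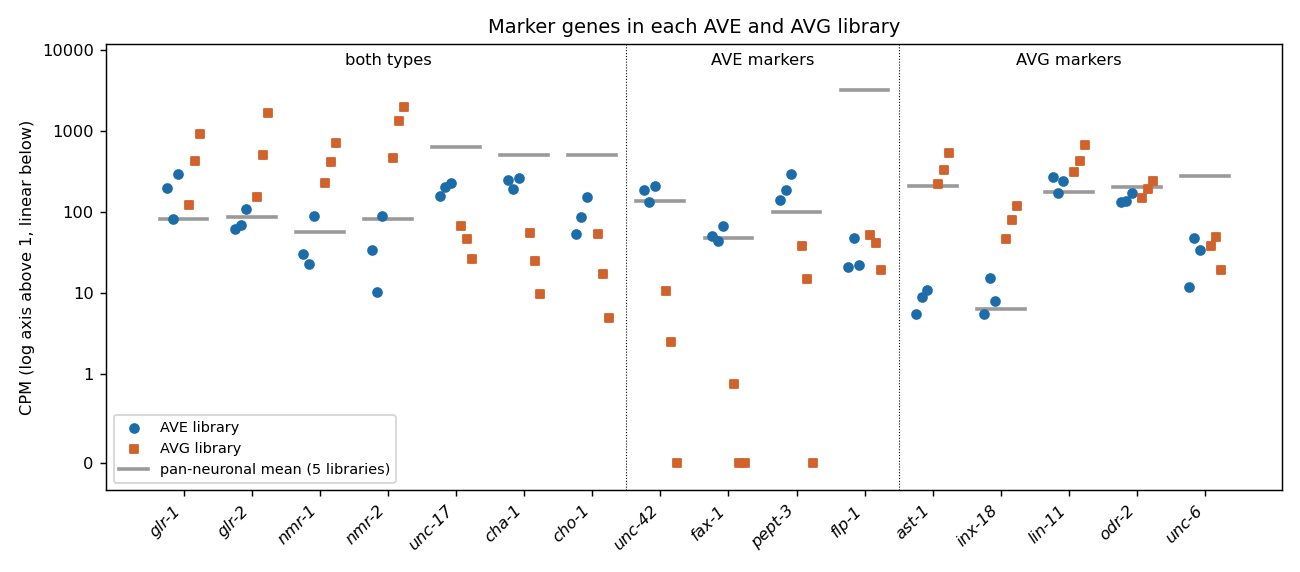
Marker genes in each library. The y axis is CPM, logarithmic above 1 and linear below, each point is 1 AVE (circle) or AVG (square) library, and the grey bar is the mean of 5 pan-neuronal libraries. The AVE markers unc-42, fax-1 and pept-3 lie higher in all AVE libraries, the AVG markers ast-1 and inx-18 lower, and glr-1 overlaps.

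Glutamate receptor genes divided between the types. Of 25 genes of ionotropic and metabotropic glutamate receptors and their partners, 9 were higher and 4 lower in AVE, against 7.48% and 5.12% of all genes, with a median difference of 0.43 (0.01 over all genes tested). The genes of both NMDA-type subunits were lower in AVE. For nmr-2 (chromosome V, 15006341 to 15011660) the libraries held 33.6, 10.1 and 89.8 CPM in AVE, against 463, 1326 and 1974 CPM in AVG. No AVE library came near the lowest AVG one (-4.79 ± 0.84, adjusted p = 0.000118). For nmr-1 they held 30.3, 22.7 and 89 CPM in AVE, against 225, 417 and 708 CPM in AVG (-3.23 ± 0.70, adjusted p = 0.00141). The AMPA-type subunit gene glr-2 had 61.8, 69.3 and 109 CPM in AVE, against 151, 503 and 1683 CPM in AVG, so that AVG 43 lay close to AVE 42 and AVG 45 far above the rest (-3.28 ± 0.90, adjusted p = 0.0128). The metabotropic receptor gene mgl-3 averaged 11.3 ± 8.10 CPM in AVE and 132 ± 94.7 CPM in AVG (SD, n = 3 each, as for all such pairs) and was lower as well (-3.53 ± 0.58, adjusted p = 4.59e-05). glr-2 did not pass without AVE 40, AVE 41 or AVG 45 (adjusted p from 0.0583 to 0.16). nmr-1 and glr-2 did not pass without AVE 40 and AVG 45 together, and glr-2 did not pass without AVG 43 and AVG 45 together.

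The higher members were other subunits and their helpers. The non-NMDA subunit gene glr-5 (chromosome V, 8716495 to 8720516) had 260.1, 145 and 316 CPM in AVE, against 28.3, 2.46 and 7.22 CPM in AVG, with the lowest AVE library at 5.12 times the highest AVG one (4.03 ± 0.71, adjusted p = 0.000126). Its relative glr-4 averaged 82.6 ± 23.3 CPM in AVE and 9.86 ± 5.06 CPM in AVG (2.95 ± 0.63, adjusted p = 0.00119). The stargazin-like auxiliary gene stg-1 had 53.1, 41.6 and 59.4 CPM in AVE and 2 counts over the AVG libraries, an AVE over AVG ratio of summed counts of 51.5 (95% interval 14 to 429). The glutamate-gated chloride channel gene avr-14 had 97.6, 69.3 and 129 CPM in AVE, against 11.5, 2.46 and 14.4 CPM in AVG (3.32 ± 0.64, adjusted p = 0.000368), and glc-4 of the same family was also higher (2.86 ± 0.76, adjusted p = 0.00968). The metabotropic gene mgl-2 was higher (2.83 ± 0.60, adjusted p = 0.00121), but 554 of its 3219 exon bases are shared with maf-1 on the same strand, so reads of the pair cannot be told apart there. The auxiliary subunit genes sol-1, sol-2 and neto-1 did not pass (-1.02 ± 0.51, -0.66 ± 0.74 and 0.37 ± 0.65, adjusted p = 0.215, 0.65 and 0.809). glc-4 did not pass without AVE 40 and AVG 45 together, and glr-4, glc-4 and mgl-2 did not pass without AVG 43 and AVG 45 together.

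Transmitter genes were higher in AVE where they differed, with 1 exception. Of 7 acetylcholine genes, 5 were higher and 0 lower, against 7.48% and 5.12% of all genes tested. The higher count was 2 without AVE 41, AVE 42, AVG 44 or AVG 45. The choline acetyltransferase gene cha-1 had 247, 192 and 262 CPM in AVE, against 54.8, 24.6 and 9.63 CPM in AVG (2.89 ± 0.69, adjusted p = 0.00388), and the vesicular acetylcholine transporter gene unc-17, which shares 66 exon bases and its locus with cha-1, had 159, 204 and 226 CPM in AVE, against 66.3, 46.7 and 26.5 CPM in AVG (2.05 ± 0.64, adjusted p = 0.029). Strand use in counting is not given in the sources used here, so where genes overlap their reads cannot be told apart. Both types lay below the pan-neuronal means, 505 ± 22.6 CPM for cha-1 and 635 ± 44.8 CPM for unc-17. The choline transporter gene cho-1 had 53.1, 87 and 155 CPM in AVE, against 53, 17.2 and 4.81 CPM in AVG. AVE 40 and AVG 43 had nearly the same level, and the gene passed as higher (1.85 ± 0.60, adjusted p = 0.036). The acetylcholinesterase gene ace-4 averaged 42.6 ± 6.92 CPM in AVE and 4.27 ± 3.19 CPM in AVG (3.09 ± 0.62, adjusted p = 0.000611). The call of unc-17 ended with the length trend taken out, and unc-17 did not pass without AVE 41, AVE 42, AVG 44 or AVG 45 (adjusted p from 0.0621 to 0.118) and cho-1 did not pass without AVE 41, AVE 42, AVG 44 or AVG 45 (adjusted p from 0.0565 to 0.195). cha-1, unc-17 and cho-1 did not pass without AVE 40 and AVG 45 together or without AVG 43 and AVG 45 together.

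Genes of other transmitters passed as well, with 3 higher and 0 lower of 9 monoamine genes, 3 higher and 0 lower of 8 genes of glutamate release and uptake, and 0 higher and 1 lower of 5 GABA genes. Over all genes tested, 7.48% were higher and 5.12% lower. Of the genes of glutamate release and uptake there were 1 higher without AVE 40 or AVG 45, and of the monoamine genes 1 lower without AVG 45. The tyrosine decarboxylase gene tdc-1 (chromosome II, 8270597 to 8273615), whose enzyme makes tyramine, had 1159.8, 818 and 1519.7 CPM in AVE, against 99, 17.2 and 7.22 CPM in AVG. The lowest AVE library was 8.26 times the highest AVG library (4.72 ± 0.70, adjusted p = 1.22e-05). The vesicular monoamine transporter gene cat-1 had 235, 189 and 199 CPM in AVE, against 7.96, 17.2 and 12 CPM in AVG (4.14 ± 0.59, adjusted p = 6.51e-06), and in AVE both genes lay above their pan-neuronal means, 238 ± 32.1 CPM for tdc-1 and 141 ± 21.2 CPM for cat-1. The tyramine beta-hydroxylase gene tbh-1, which turns tyramine into octopamine, did not pass (1.08, 2.52 and 5.47 CPM in AVE, against 32.7, 2.46 and 0 CPM in AVG, -2.11 ± 0.85, adjusted p = 0.103). The vesicular glutamate transporter gene eat-4 averaged 98.3 ± 11.1 CPM in AVE and 14.1 ± 10.5 CPM in AVG (2.69 ± 0.67, adjusted p = 0.00555) and lay below the pan-neuronal 321 ± 30.4 CPM. The vesicular GABA transporter gene unc-47 was the exception, at 2.17, 8.82 and 9.37 CPM in AVE, against 34.5, 41.7 and 24.1 CPM in AVG (-2.28 ± 0.45, adjusted p = 0.000569), while the GABA synthesis gene unc-25 did not pass (-0.30 ± 0.36, adjusted p = 0.682).

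These transmitter genes are also markers of other neurons. Of a list of 30 markers of other neurons, 6 were higher and 2 lower in AVE, against 7.48% and 5.12% of all genes tested. The list took 0.135% to 0.276% of the AVE counts, against 0.0753% to 0.0914% of the AVG counts (exact two-sided permutation test, adjusted p = 0.26, where 0.1 is the smallest unadjusted p that 3 against 3 can give). The list held no count for 1 member in AVE, str-1, and for 5 members in AVG (gcy-32, gcy-35, hlh-34, sra-11 and str-1). The gene gcy-13, a marker of the tyraminergic RIM neuron, was looked up after the tdc-1 values were seen. It had 0 counts in AVE and 2 in AVG. It was also low in the pan-neuronal libraries (0.549 ± 0.427 CPM), so its counts cannot show whether RNA of that neuron was present in AVE. How far RNA of other neurons contributes to these levels was not tested.

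Nicotinic acetylcholine receptor subunits, which form cation channels, fell into opposite groups. Of 29 subunit and partner genes, 4 were higher and 8 lower in AVE (median difference 0.45), against 7.48% and 5.12% of all genes tested. The gene acr-5 (chromosome III, 6509445 to 6514773) had 2.17, 5.04 and 8.59 CPM in AVE, against 220.2, 530.4 and 737 CPM in AVG, and acr-24 (chromosome IV, 15497563 to 15511065) had 0, 6.30 and 8.59 CPM in AVE, against 240.5, 442 and 626 CPM in AVG. The lowest AVG library was 25.6 times the highest AVE library for acr-5 and 28 times for acr-24 (-6.49 ± 0.60, adjusted p = 5.05e-09 and -6.39 ± 0.70, adjusted p = 9.28e-08). The subunit genes deg-3 and des-2, transcribed together in an operon, were lower together. deg-3 averaged 4.44 ± 3.87 CPM in AVE and 79.7 ± 26.9 CPM in AVG (-4.10 ± 0.60, adjusted p = 9.22e-06), and des-2 averaged 6.73 ± 3.14 CPM in AVE and 122 ± 35.4 CPM in AVG (-4.13 ± 0.62, adjusted p = 1.29e-05). The subunit gene unc-63, of the levamisole-sensitive receptor, was lower at 44.4, 23.9 and 56.2 CPM in AVE, against 77.8, 211 and 277 CPM in AVG (-2.16 ± 0.55, adjusted p = 0.00655). The higher members were acr-6, acr-3, acr-16 and the auxiliary gene molo-1. acr-6 had 72.6, 40.3 and 87.5 CPM in AVE and 3 counts over the AVG libraries, a ratio of summed counts of 45.9 (95% interval 15.5 to 224), and acr-3 had 34.7, 32.8 and 51.5 CPM in AVE and 3 counts over the AVG libraries, a ratio of summed counts of 26.9 (95% interval 9.01 to 132). The call of unc-63 ended without AVE 40 and AVG 45 together.

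Receptors of slow and inhibitory acetylcholine signals were called in 1 direction, higher in AVE. Of 10 genes of muscarinic receptors and acetylcholine-gated chloride channels, 6 were higher and 0 lower (median difference 2.47), against 7.48% and 5.12% of all genes tested. Only 3 of the 10 were higher without AVE 40 and AVG 45 together. The higher count was smaller still without AVG 43 and AVG 45 together, where 1 AVG library was left. The chloride channel gene lgc-47 had 328, 166 and 239 CPM in AVE, against 20.3, 2.46 and 14.4 CPM in AVG (4.17 ± 0.85, adjusted p = 0.000743), and the muscarinic receptor gene gar-2 averaged 189 ± 70.4 CPM in AVE and 29.4 ± 9.19 CPM in AVG (2.65 ± 0.55, adjusted p = 0.000915). GABA receptor genes gave 2 higher and 1 lower of 9, against the same shares of all genes tested. The GABA-A type gene unc-49 (chromosome III, 10520762 to 10532705), known best from body-wall muscle, had 1397, 863 and 1350.3 CPM in AVE, against 139, 138 and 147 CPM in AVG. The 3 AVG libraries were close together, and the lowest AVE library was 5.88 times the highest of them (3.09 ± 0.38, adjusted p = 6.99e-07). The GABA-B receptor gene gbb-2 was higher (2.60 ± 0.57, adjusted p = 0.00157) and its partner gbb-1 did not pass (-0.78 ± 0.51, adjusted p = 0.372). The GABA-gated chloride channel gene lgc-38 was lower, at 10.8, 10.1 and 15.6 CPM in AVE, against 67.2, 95.8 and 176 CPM in AVG (-3.18 ± 0.58, adjusted p = 0.000186). The call of gar-2 ended without AVG 43 and AVG 45 together.

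Monoamine receptor genes gave 7 higher and 4 lower of 20 (median difference 0.62), against 7.48% and 5.12% of all genes tested. There were 4 higher without AVE 40, 0 lower without AVE 40 and 1 lower without AVE 41, AVG 44 or AVG 45. The higher count was smaller still with AVG 44 as the lone AVG library. The serotonin receptor gene ser-4 had 145, 154 and 145 CPM in AVE, against 10.6, 0 and 2.41 CPM in AVG, with all AVE libraries close together and far above AVG (4.69 ± 0.69, adjusted p = 1.08e-05). The serotonin-gated channel gene lgc-50 averaged 66.1 ± 20.7 CPM in AVE and 6.58 ± 6.23 CPM in AVG (3.11 ± 0.51, adjusted p = 5.41e-05). The dopamine-gated channel gene lgc-53 was higher (3.99 ± 0.84, adjusted p = 0.00113), as was lgc-55 of a tyramine-gated chloride channel (3.19 ± 0.61, adjusted p = 0.000355). The lower members were the dopamine receptor gene dop-3 (-2.28 ± 0.75, adjusted p = 0.0387), the dopamine receptor-like gene dop-5 (-2.04 ± 0.67, adjusted p = 0.0387), the tyramine receptor gene ser-2 (-2.47 ± 0.75, adjusted p = 0.0251) and the octopamine receptor gene octr-1 (-1.82 ± 0.52, adjusted p = 0.0167), and none of the 4 kept its call in every fit without 1 library. Of these, dop-3 did not pass without AVE 40, AVE 41 or AVG 45 (adjusted p from 0.105 to 0.278), dop-5 did not pass without AVE 40, AVE 41, AVG 44 or AVG 45 (adjusted p from 0.0547 to 0.25), ser-2 did not pass without AVE 40, AVE 42, AVG 44 or AVG 45 (adjusted p from 0.0557 to 0.119) and octr-1 did not pass without AVE 40, AVE 41 or AVG 44 (adjusted p from 0.0587 to 0.0997). Those of lgc-53 and lgc-55 ended without AVG 43 and AVG 45 together. The dopamine receptor gene dop-1 averaged 157 ± 21.7 CPM in AVE and 127 ± 37.1 CPM in AVG and did not pass (0.32 ± 0.54, adjusted p = 0.802). Nor did dop-2, at 127 ± 62.8 CPM in AVE and 104 ± 55.2 CPM in AVG (0.31 ± 0.44, adjusted p = 0.742).

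**Figure D3:**
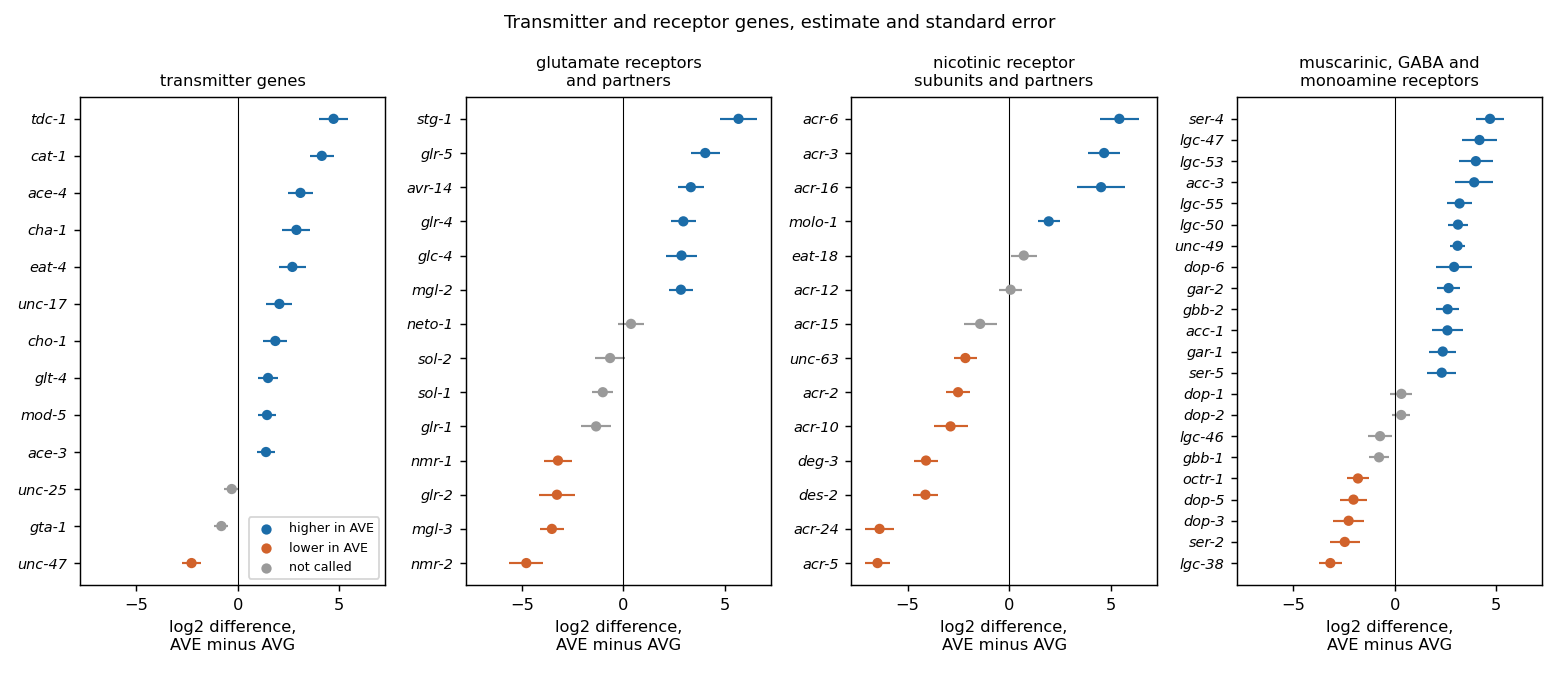
Transmitter and receptor genes in 4 panels. The x axis is the log2 difference AVE minus AVG from edgeR, points are estimates and bars are 1 SE. Blue genes are called higher in AVE, orange genes lower and grey genes not called: nmr-2, acr-5 and acr-24 lie at the low end and tdc-1, cat-1, ser-4 and unc-49 among the higher genes, and a few points such as stg-1, acr-6 and acr-3 rest on at most 3 counts in AVG.

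Of 25 innexin genes, whose proteins form gap junctions, 1 was higher and 2 lower in AVE, against 7.48% and 5.12% of all genes tested (median difference -0.01), with 0 higher without AVG 44 or AVG 45 and 1 lower without AVE 40, AVE 41 or AVG 45. The widely used unc-9 had 233, 245 and 326 CPM in AVE, against 184, 253 and 318 CPM in AVG (0.10 ± 0.54, adjusted p = 0.968). unc-7 lay lower without overlap but did not pass (387, 295 and 476 CPM in AVE, against 651, 1078 and 1683 CPM in AVG, -1.56 ± 0.68, adjusted p = 0.142). Besides inx-18, inx-1 was lower (-1.73 ± 0.49, adjusted p = 0.0161), and inx-19 was the higher one (3.85 ± 1.08, adjusted p = 0.0147). inx-1 did not pass without AVE 40, AVE 41 or AVG 45 (adjusted p from 0.065 to 0.0764) and inx-19 did not pass without AVG 44 or AVG 45 (adjusted p from 0.062 to 0.065). inx-1 and inx-19 did not pass without AVE 40 and AVG 45 together or without AVG 43 and AVG 45 together.

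Neuropeptide genes were called in both directions. Of 30 FMRFamide-like peptide genes 4 were higher and 3 lower in AVE (median difference 0.77), against 7.48% and 5.12% of all genes tested. There were 2 higher without AVG 44 or AVG 45 and 8 higher without AVG 43. flp-19 had 554, 512 and 567 CPM in AVE, against 34.5, 0 and 7.22 CPM in AVG (5.05 ± 0.83, adjusted p = 4.59e-05) and flp-28 had 713, 757 and 485 CPM in AVE, against 109.6, 24.6 and 9.63 CPM in AVG (3.68 ± 0.65, adjusted p = 0.000144). On the other side, flp-14 (chromosome III, 12910510 to 12914783) had 94.3, 84.4 and 125 CPM in AVE, against 1079, 906 and 1288 CPM in AVG (-3.43 ± 0.64, adjusted p = 0.000274). The level of flp-22 was 96.5, 98.3 and 119 CPM in AVE, against 1179, 1243 and 1620.0 CPM in AVG (-3.68 ± 0.54, adjusted p = 8.9e-06). In these 4 genes the groups lay far apart. flp-18, which codes for peptides known from command interneurons, had 1249, 1173 and 1196 CPM in AVE, against 201, 85.9 and 135 CPM in AVG (3.09 ± 0.84, adjusted p = 0.0114). flp-18 did not pass without AVG 44 or AVG 45 (adjusted p from 0.0503 to 0.0657). flp-18 did not pass without AVE 40 and AVG 45 together or without AVG 43 and AVG 45 together.

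Of 72 other neuropeptide genes 11 were higher and 7 lower (median difference 0.64), against 7.48% and 5.12% of all genes tested. There were 22 higher without AVG 43 and 4 lower without AVE 40. Abundant ones higher in AVE were nlp-13, at 1074, 1076 and 770.0 CPM in AVE, against 77.8, 24.6 and 21.7 CPM in AVG (4.49 ± 0.63, adjusted p = 5.59e-06), and nlp-21, at 926, 1124 and 1182 CPM in AVE, against 196, 39.3 and 91.5 CPM in AVG (3.28 ± 0.68, adjusted p = 0.000871). snet-1, nlp-59 and nlp-52 were higher too (2.62 ± 0.57, 4.0 ± 0.73 and 4.62 ± 0.64, adjusted p = 0.00163, 0.000211 and 3.73e-06). In all 5 genes AVG 43 had the highest value of the AVG libraries. Lower in AVE were nlp-8, at 137, 161 and 110.1 CPM in AVE, against 828, 825 and 1273 CPM in AVG (-2.84 ± 0.60, adjusted p = 0.00109), and nlp-101, at 11.9, 30.2 and 21.1 CPM in AVE, against 480.1, 663 and 1172 CPM in AVG (-5.20 ± 0.70, adjusted p = 2.58e-06). nlp-35 averaged 15 ± 5.55 CPM in AVE and 300.4 ± 98 CPM in AVG (-4.33 ± 0.64, adjusted p = 1.19e-05), and nlp-79 averaged 7.65 ± 2.17 CPM in AVE and 113 ± 6.89 CPM in AVG (-3.85 ± 0.57, adjusted p = 1.03e-05). Insulin-like genes gave 0 higher and 1 lower of 27, with 1 higher without AVG 43. That gene, ins-17 (chromosome III, 4476918 to 4477572), had 34.7, 55.5 and 82 CPM in AVE, against 1213, 945 and 607 CPM in AVG, with 7.40 times as much in the lowest AVG library as in the highest AVE library (-4.0 ± 0.49, adjusted p = 5.62e-07).

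**Figure D4:**
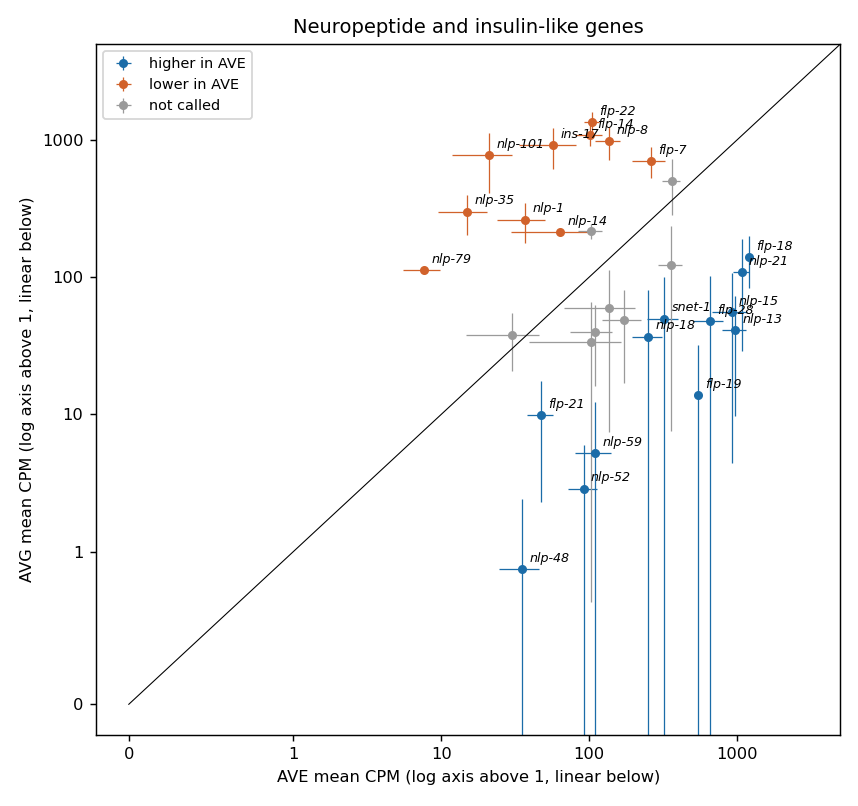
Mean levels of neuropeptide and insulin-like genes named by rule. The x axis is the AVE mean and the y axis the AVG mean, both in CPM, logarithmic above 1 and linear below, with bars of 1 SD over 3 libraries and a line of equal level. Genes higher in AVE (blue) lie right of the line, from nlp-48 to flp-18, and genes lower in AVE (orange) left of it, from nlp-79 to flp-22.

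Most peptide processing genes did not pass, and those that did were lower in AVE apart from 1. Of 17 genes of peptide processing and dense-core vesicles 1 was higher and 6 lower (median difference -0.90), against 7.48% and 5.12% of all genes tested. The amidating enzyme gene pamn-1 had 46.6, 31.5 and 43 CPM in AVE, against 147, 221 and 419 CPM in AVG (-2.69 ± 0.32, adjusted p = 3.65e-07), and the proprotein convertase gene kpc-1 had 142, 144 and 119 CPM in AVE, against 435, 604 and 903 CPM in AVG (-2.26 ± 0.33, adjusted p = 1.04e-05). AVG 45 was the highest library in both. The convertase gene egl-3, abundant in both types, averaged 1127 ± 229 CPM in AVE and 2109.7 ± 199 CPM in AVG and did not pass (-0.90 ± 0.58, adjusted p = 0.362). Nor did the carboxypeptidase gene egl-21, which averaged 797 ± 128 CPM in AVE and 1603 ± 212 CPM in AVG (-1.01 ± 0.59, adjusted p = 0.304). The higher gene was another convertase gene, aex-5, at 2004, 1956 and 1395 CPM in AVE, against 42.4, 19.6 and 62.6 CPM in AVG (5.42 ± 1.38, adjusted p = 0.00686). Its call ended without AVE 40 and AVG 45 together and without AVG 43 and AVG 45 together.

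Peptide receptor genes were called often in both directions. Of 94 genes 14 were higher and 18 lower in AVE, against 7.48% and 5.12% of all genes tested, with a median difference of 0.59. Without AVE 40 and AVG 45 together, 7 were higher and 13 lower. The FMRFamide peptide receptor-like gene frpr-14 (chromosome II, 650955 to 654133) had 28.2, 29 and 24.2 CPM in AVE, against 619, 1108 and 1695 CPM in AVG. The lowest AVG library was 21.4 times the highest AVE library (-5.39 ± 0.53, adjusted p = 1.81e-08). Its relative frpr-1 had 0, 1.26 and 3.12 CPM in AVE, against 94.6, 174 and 212 CPM in AVG (-6.59 ± 0.82, adjusted p = 6.99e-07). The receptor genes npr-24, npr-37 and npr-12 were lower as well (-5.83 ± 0.76, -4.22 ± 0.50 and -3.85 ± 0.58, adjusted p = 1.7e-06, 3.05e-07 and 1.57e-05), and so was ntr-2, a receptor gene for the vasopressin-like peptide nematocin (-4.61 ± 0.81, adjusted p = 0.000129). On the higher side, dmsr-5 had 67.2, 65.5 and 95.3 CPM in AVE, against 3.54, 4.91 and 4.81 CPM in AVG (4.15 ± 0.61, adjusted p = 9.25e-06), and dmsr-1 averaged 72 ± 17.8 CPM in AVE and 9.07 ± 5.32 CPM in AVG (2.84 ± 0.49, adjusted p = 8.44e-05). In none of the 8 genes did the groups overlap.

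Ion channel genes were called in both directions, and their counts stand against 7.48% higher and 5.12% lower of all genes tested. Among 41 two-pore potassium channel genes, which set resting potential, 4 were higher and 1 lower (median difference 0.75), with 2 higher without AVE 42. The abundant twk-46 was higher, at 181, 169 and 127 CPM in AVE, against 6.19, 2.46 and 0 CPM in AVG (5.40 ± 0.69, adjusted p = 1.21e-06). Of 28 other potassium channel genes 4 were higher and 2 lower, with 1 lower without AVE 40, AVE 41, AVG 44 or AVG 45. The Shaw-type gene shw-1 (chromosome II, 8305745 to 8321471) had 17.3, 36.5 and 35.1 CPM in AVE, against 721, 1471 and 2852 CPM in AVG, with the lowest AVG library at 19.7 times the highest AVE library (-5.82 ± 0.67, adjusted p = 2.26e-07), while the Shal-type gene shl-1 was higher (3.05 ± 0.65, adjusted p = 0.00119). Of 16 TRP channel genes 2 were higher and 1 lower, and of 24 DEG/ENaC sodium channel genes 2 were higher and 4 lower. For TRP channels there were 0 lower without AVE 40 and 2 lower without AVG 43, and for DEG/ENaC channels 1 higher without AVE 41 or AVG 43. The TRPC channel genes trp-1 and trp-2 were higher (3.65 ± 0.52, adjusted p = 6.11e-06 and 2.91 ± 0.48, adjusted p = 4.72e-05). The DEG/ENaC gene del-1 was lower, at 9.76, 12.6 and 35.9 CPM in AVE, against 92.8, 307 and 845 CPM in AVG (-4.37 ± 0.67, adjusted p = 1.66e-05), as was deg-1 (-4.80 ± 0.78, adjusted p = 4.02e-05). Of 14 calcium and sodium leak channel genes 2 were higher and 5 lower (median difference -0.91), with 1 higher without AVE 42, AVG 44 or AVG 45, 1 lower without AVE 40 or AVG 45 and 2 lower without AVE 41, and none was lower without AVE 40 and AVG 45 together. The sodium leak channel subunit gene unc-79 had 121, 125 and 266 CPM in AVE, against 348, 1026 and 2426 CPM in AVG (-2.89 ± 0.58, adjusted p = 0.000677). The pore genes of that channel went opposite ways, with nca-2 higher at 113, 103 and 269 CPM in AVE, against 39.8, 12.3 and 14.4 CPM in AVG (2.77 ± 0.63, adjusted p = 0.00249) and unc-77, also called nca-1, lower (-1.92 ± 0.54, adjusted p = 0.0156). unc-77 did not pass without AVE 40, AVE 41 or AVG 45 (adjusted p from 0.0766 to 0.315). unc-79 and unc-77 did not pass without AVE 40 and AVG 45 together, and nca-2 and unc-77 did not pass without AVG 43 and AVG 45 together.

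Transcription factor genes were called in both directions, and their counts stand against 7.48% higher and 5.12% lower of all genes tested. Of 74 homeobox genes 6 were higher and 7 lower (median difference 0.36), with 4 lower without AVE 40, AVE 41 or AVG 45. Of 36 other neuronal factor genes 5 were higher and 2 lower (median difference 0.45), with 3 higher without AVG 43 or AVG 44. The NK-type gene ceh-27 had 155, 116 and 219 CPM in AVE, against 5.30, 2.46 and 2.41 CPM in AVG (5.39 ± 0.59, adjusted p = 1.06e-07), and the zinc finger homeobox gene zfh-2 had 1425, 829 and 1753 CPM in AVE, against 284, 39.3 and 14.4 CPM in AVG (3.52 ± 0.74, adjusted p = 0.00107), in which AVG 43 lay far above the other AVG libraries. The SoxB gene sox-3 averaged 55.4 ± 14.6 CPM in AVE and 3.75 ± 4.57 CPM in AVG (3.53 ± 0.61, adjusted p = 9.34e-05). Lower in AVE, the spalt-type zinc finger gene sem-4 had 36.9, 45.4 and 46.1 CPM in AVE, against 841, 1552 and 2515 CPM in AVG (-5.25 ± 0.72, adjusted p = 3.32e-06). The Msx-type gene vab-15 had 1.08, 2.52 and 1.56 CPM in AVE, against 49.5, 95.8 and 207 CPM in AVG (-6.06 ± 0.75, adjusted p = 8.7e-07). The Iroquois gene irx-1, which shares 276 of its 1869 exon bases with C41G7.7, averaged 10.4 ± 4.35 CPM in AVE and 244 ± 175 CPM in AVG (-4.52 ± 0.58, adjusted p = 1.09e-06), and dve-1, of a chromatin-organising homeodomain protein, was lower too (-3.42 ± 0.64, adjusted p = 0.000261). None of the 7 named here had overlapping groups. All 6 Hox cluster genes tested failed to pass, and none reached a mean of 20 CPM in either type.

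Of 42 axon guidance genes 4 were higher and 12 lower in AVE, against 7.48% and 5.12% of all genes tested (median difference -0.33). These counts moved when single libraries were left out, with 2 higher without AVE 42, AVG 44 or AVG 45, 4 lower without AVG 45, 6 lower without AVE 41 and 7 lower without AVE 40, and 2 were lower without AVE 40 and AVG 45 together. The L1-type adhesion gene sax-7 (chromosome IV, 8062659 to 8084087) had 216, 313 and 468 CPM in AVE, against 873, 2028 and 5021 CPM in AVG (-2.99 ± 0.51, adjusted p = 7.82e-05), and the receptor phosphatase gene clr-1 had 92.1, 101 and 159 CPM in AVE, against 210.4, 471 and 770.3 CPM in AVG (-2.04 ± 0.38, adjusted p = 0.000258). The Flamingo-type cadherin gene fmi-1, which acts in pioneer and follower axons of the cord, had 26, 75.6 and 53.1 CPM in AVE, against 141, 474 and 1030.2 CPM in AVG (-3.41 ± 0.66, adjusted p = 0.000398). AVG 45 was the highest library in all 3. The Robo receptor gene sax-3 and the netrin receptor gene unc-40 were lower (-1.75 ± 0.47, adjusted p = 0.00966 and -1.32 ± 0.39, adjusted p = 0.0224). sax-3 did not pass without AVE 41 or AVG 45 (adjusted p from 0.0543 to 0.0628) and unc-40 did not pass without AVE 40, AVE 41 or AVG 45 (adjusted p from 0.061 to 0.234). The ephrin gene efn-2 was the largest on the higher side, at 223, 212 and 123 CPM in AVE, against 11.5, 4.91 and 0 CPM in AVG (4.79 ± 0.60, adjusted p = 8.06e-07). fmi-1, sax-3 and unc-40 did not pass without AVE 40 and AVG 45 together, and sax-3 and unc-40 did not pass without AVG 43 and AVG 45 together. The call of unc-40 also ended with the length trend taken out. The transcripts of sax-7 and fmi-1 measure 6209 and 8065 bases of exon, and with the length trend taken out 4 of the 42 genes were higher and 11 lower.

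Wnt genes and surface proteins of the immunoglobulin and cadherin families were called in both directions, with 3 higher and 2 lower of 18 (median difference 0.37) and 9 higher and 8 lower of 55 (0.20). The shares over all genes tested were 7.48% higher and 5.12% lower. Of the 55 there were 5 higher without AVE 40, AVE 41, AVG 44 or AVG 45, 4 lower without AVE 40 and 5 lower without AVG 45. The Wnt ligand gene cwn-2 had 5.42, 0 and 4.69 CPM in AVE, against 45.1, 128 and 282 CPM in AVG (-5.38 ± 0.77, adjusted p = 7.57e-06) and the frizzled receptor gene cfz-2 had 98.6, 105 and 65.6 CPM in AVE, against 9.73, 4.91 and 4.81 CPM in AVG (3.64 ± 0.55, adjusted p = 1.42e-05). The immunoglobulin genes syg-1, zig-8, rig-5 and oig-1 were higher (3.39 ± 0.54, 3.86 ± 0.69, 4.01 ± 0.84 and 4.03 ± 0.78, adjusted p = 2.75e-05, 0.000164, 0.00102 and 0.000403). SYG-1 is known to guide where synapses form. The secreted immunoglobulin genes zig-5 and zig-11 were lower (-3.22 ± 0.60 and -2.19 ± 0.34, adjusted p = 0.000291 and 2.5e-05). The dachsous-type cadherin gene cdh-1 was higher, at 359.9, 231 and 427 CPM in AVE, against 69.8, 9.82 and 12 CPM in AVG (3.35 ± 0.49, adjusted p = 9.22e-06).

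No pan-neuronal gene was called higher in AVE. Of 28 pan-neuronal genes 0 were higher and 7 lower (median difference -0.74), against 7.48% and 5.12% of all genes tested. Of 30 synaptic vesicle and active zone genes 0 were higher and 5 lower (-0.17). The vesicle list had 1 lower without AVG 45, 2 lower without AVE 40 or AVE 41 and 8 lower without AVG 43, and none was lower without AVE 40 and AVG 45 together. The vesicle gene rab-3 averaged 319.6 ± 80.6 CPM in AVE and 346 ± 136 CPM in AVG and did not pass (-0.11 ± 0.59, adjusted p = 0.965), and both types lay far below the pan-neuronal 2323 ± 168 CPM. The synaptobrevin gene snb-1 averaged 492 ± 24.2 CPM in AVE and 360.0 ± 47.4 CPM in AVG and did not pass (0.45 ± 0.48, adjusted p = 0.629). The priming factor gene unc-13 had 134, 210.5 and 219 CPM in AVE, against 354, 798 and 2044 CPM in AVG (-2.50 ± 0.49, adjusted p = 0.000513), and the kinesin gene unc-104, whose motor carries synaptic vesicle precursors, had 132, 195 and 186 CPM in AVE, against 312, 604 and 2612 CPM in AVG (-2.78 ± 0.56, adjusted p = 0.00065). AVG 45 held by far the highest value of both. Of the 28 pan-neuronal genes there were 2 lower without AVG 45, and none was lower without AVE 40 and AVG 45 together. Of the named genes, unc-104 did not pass without AVG 45 (adjusted p = 0.0654). unc-13 and unc-104 did not pass without AVE 40 and AVG 45 together, and unc-104 did not pass without AVG 43 and AVG 45 together.

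Single genes of other tissues were called, against 7.48% higher and 5.12% lower of all genes tested. Body-wall muscle genes took 2.71% to 3.04% of the AVE counts, against 0.988% to 2.07% of the AVG counts (exact two-sided permutation test, adjusted p = 0.26). Most of the AVE share came from unc-54 alone, so it does not describe the list as a whole. Of the 21 genes 2 were higher and 0 lower (median difference -0.13), with 0 higher without AVE 40, AVE 41, AVG 43 or AVG 45 and 1 higher without AVE 42 or AVG 44. The muscle myosin gene unc-54 had 23558, 20059 and 16438 CPM in AVE, against 5248, 5619 and 6766 CPM in AVG (1.77 ± 0.60, adjusted p = 0.0483). The actin-depolymerising factor gene unc-60 had 208, 253 and 168 CPM in AVE, against 106, 120.3 and 84.2 CPM in AVG, without overlap (1.02 ± 0.32, adjusted p = 0.031). In the fits without 1 library, unc-54 did not pass without AVE 40, AVE 41, AVE 42, AVG 43, AVG 44 or AVG 45 (adjusted p from 0.0609 to 0.138) and unc-60 did not pass without AVE 40, AVE 41, AVG 43 or AVG 45 (adjusted p from 0.0672 to 0.131). unc-54 and unc-60 did not pass without AVE 40 and AVG 45 together or without AVG 43 and AVG 45 together. Both calls also ended with DESeq2 size factors and with no low-count filter, and that of unc-60 with the length trend taken out and in the fit of the 6 libraries alone. The other 19 genes did not pass: the myosin gene myo-3 had 324, 275 and 345 CPM in AVE, against 470.4, 388 and 173 CPM in AVG (-0.13 ± 0.78, adjusted p = 0.97) and the paramyosin gene unc-15 had 587, 783 and 789.5 CPM in AVE, against 1192, 661 and 329.8 CPM in AVG (-0.02 ± 0.73, adjusted p = 1), both overlapping. The cuticle collagen gene rol-6 had 989, 1739 and 625 CPM in AVE, against 63.7, 167 and 72.2 CPM in AVG (3.48 ± 0.69, adjusted p = 0.000569), 1 of 20 hypodermis and cuticle genes that was higher, while 2 were lower, with 2 higher without AVG 44 and 1 lower without AVE 40, AVE 41, AVE 42, AVG 43 or AVG 44. One of these, the collagen gene col-140, had 22.8, 69.3 and 86.7 CPM in AVE, against 1738, 709.7 and 65 CPM in AVG (-3.81 ± 1.29, adjusted p = 0.046). AVG 45 lay among the AVE libraries, and col-140 did not pass without AVE 40, AVE 41, AVE 42, AVG 43 or AVG 44 (adjusted p from 0.0725 to 0.192). The collagen genes sqt-1 and sqt-3 lay lower in AVE without passing (-1.24 ± 0.65, adjusted p = 0.243 and -1.29 ± 0.59, adjusted p = 0.162). The call of rol-6 ended without AVG 43 and AVG 45 together. Parts of unc-54 and rol-6 are common in C. elegans transgenes, and the labels name no construct, so their part in these reads was not tested.

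Of 18 germline genes 1 was higher and 1 lower, against 7.48% and 5.12% of all genes tested. Their median difference was -0.94, against 0.01 over all genes tested, and 2 were lower without AVG 45. The RNA-binding protein gene mex-3 had 1457, 996 and 925 CPM in AVE, against 102, 36.8 and 19.3 CPM in AVG (4.36 ± 0.59, adjusted p = 3.15e-06), and the zinc finger gene pie-1 (chromosome III, 12426893 to 12429195) had 20.6, 22.7 and 12.5 CPM in AVE, against 482, 1031 and 1473 CPM in AVG (-5.75 ± 0.63, adjusted p = 9.28e-08). The other 16 did not pass. glh-1, of a P granule helicase, averaged 166 ± 38.9 CPM in AVE and 167 ± 98.5 CPM in AVG (-0.02 ± 0.56, adjusted p = 1), and the germline list as a whole took 0.223% to 0.242% of the AVE counts, against 0.181% to 0.308% of the AVG counts. No intestine, sperm, glia or coelomocyte gene was called of 17, 11, 8 and 4 tested (with 1 higher without AVG 43 among glia genes), and no member of those lists was without a count in either type. Of 43 cilium genes, which mark sensory neurons, 1 was higher and 1 lower, with 0 higher without AVE 40, AVE 41, AVG 43 or AVG 45. The cilium gene ift-81, called lower, shares 72 exon bases with the far more abundant ags-3 on the opposite strand. Likewise arl-13 shares 13 exon bases with rla-1, at 2648 CPM in AVE and 1286 CPM in AVG. Strand use is not given, so reads of each pair cannot be told apart there. The GATA factor gene elt-1, listed with hypodermis and also used in some neurons, had 4.34, 5.04 and 5.47 CPM in AVE, against 46, 61.4 and 125 CPM in AVG and was lower (-3.93 ± 0.64, adjusted p = 4.76e-05).

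Many ribosomal protein genes were higher in AVE, and a few stress genes lower. Of 78 ribosomal protein genes 45 were higher and 0 lower (median difference 0.99), against 7.48% and 5.12% of all genes tested. The list took 15.1%, 16.6% and 12.2% of the AVE counts, against 6.93%, 7.18% and 6.48% of the AVG counts (exact two-sided permutation test, adjusted p = 0.26). The all-cell libraries ran from 9.51% to 12.7% and the pan-neuronal ones from 2.42% to 4.60%. These transcripts are short: with the length trend taken out 2 of the 78 were higher, as were 2 without AVG 43 and AVG 45 together, and 24 to 51 with 1 library left out. rpl-24.2 and rps-4 kept their calls in all 15 alternatives. Of 16 stress genes 0 were higher and 3 lower (median difference -0.82). The heat-inducible gene hsp-70 had 99.7, 142 and 153 CPM in AVE, against 3226, 6569 and 5816 CPM in AVG (-5.30 ± 0.79, adjusted p = 1.22e-05) and the superoxide dismutase gene sod-3 had 4.34, 5.04 and 6.25 CPM in AVE, against 86.6, 111 and 181 CPM in AVG (-4.55 ± 0.67, adjusted p = 1.14e-05). In hsp-70 the lowest AVG library was 21.1 times the highest AVE library, whereas the constitutive genes hsp-1 and hsp-90 did not pass (adjusted p = 0.55 and 0.946). The list took 1.21% to 1.40% of the AVE counts, against 1.95% to 2.69% of the AVG counts.

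The extremes of the ranking were mostly genes of little known function. Ranked by difference among genes that averaged 20 CPM or more in their higher type and did not overlap, F19B10.13 came first among the higher genes, an order that for genes with no count in AVG depends on the fit and is no order of size, with 1296, 1022 and 572 CPM in AVE and no count in AVG. It was at least 628-fold higher, taking 3 counts over the AVG libraries as the floor; such limits and the intervals of count ratios cover counting error only. R03H10.6 was at least 397-fold higher. Named protein-coding genes among the first 15 included the DM-domain factor gene dmd-5, with 86.7, 61.8 and 119 CPM in AVE and 1 count in AVG, a ratio of summed counts of 183 (95% interval 32.6 to 7260), and the nuclear receptor gene nhr-140, a ratio of summed counts of 216 (95% interval 38.5 to 8550). The forkhead gene fkh-10 had 126, 87 and 148 CPM in AVE, against 3.54, 0 and 0 CPM in AVG (5.98 ± 0.67, adjusted p = 1.77e-07). The call of F19B10.13 ended without AVG 43 and AVG 45 together.

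Among the lower genes, W07A12.8 had no count in AVE and 54.8, 85.9 and 118 CPM in AVG, at least 86.1-fold lower in AVE, and the chemoreceptor-family gene srd-3 was at least 44.6-fold lower. K01A6.4 had 1 count in AVE and 380 in AVG, an AVG over AVE ratio of summed counts of 583 (95% interval 104 to 23100). The photoreceptor gene lite-1 (chromosome X, 6226126 to 6230769) had 4.34, 13.9 and 7.81 CPM in AVE, against 779, 1218 and 2561 CPM in AVG (-7.47 ± 0.83, adjusted p = 1.22e-07), and the globin gene glb-19 had 6.50, 1.26 and 9.37 CPM in AVE, against 431, 835 and 1420.2 CPM in AVG (-7.20 ± 0.65, adjusted p = 4.2e-09). ags-3, whose protein modulates G protein signalling, was the most abundant of these, at 77, 59.2 and 102 CPM in AVE, against 3476, 7006 and 12454 CPM in AVG (-6.58 ± 0.68, adjusted p = 3.13e-08). It shares 72 exon bases with ift-81 on the opposite strand, which was also lower. These 6 kept their calls in all 15 alternatives. Each had its highest value in AVG 45. Of 235 chemoreceptor genes tested 6 were higher and 5 lower, against 7.48% and 5.12% of all genes tested. The lower gene srt-53 had 2 counts in AVE and 118, 142 and 190.2 CPM in AVG.

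The genes next to glr-1 behaved unlike glr-1. glr-1 lies on chromosome III, 8584163 to 8588642, on the minus strand. The 4 genes just upstream of its start were higher in AVE: C06E1.12, a noncoding RNA gene, fip-3 and fipr-16, named as fungus-induced, and C06E1.7 (chromosome III, 8591271 to 8593720). C06E1.7 had 5397, 3734 and 3779 CPM in AVE and 2 counts over the AVG libraries, a ratio of summed counts of 4170 (95% interval 1150 to 34400). The other 3 had no count in AVG. fip-3 had 554, 397 and 339 CPM in AVE and was at least 280-fold higher, fipr-16 at least 136-fold and C06E1.12 at least 110-fold. The next genes outward, ztf-30 upstream and doxa-1 downstream, did not pass (0.58 ± 0.96, adjusted p = 0.791 and 0.62 ± 0.67, adjusted p = 0.64). The 4 genes were also abundant in 1 of the 4 all-cell libraries, all-cell 27, where C06E1.7 had 3802 CPM and fip-3 638 CPM, while no other all-cell or pan-neuronal library exceeded 4.53 CPM for either. F19B10.13, on chromosome II, had 449 CPM in all-cell 27 as well, and at most 8.58 CPM in the other all-cell and pan-neuronal libraries. R03H10.6 had 79.8 CPM in all-cell 27 and at most 2.15 CPM in the rest of those libraries. T27A3.11, another gene near the top of the higher ranking, had 0 CPM in all-cell 27. The source of the reads that AVE and all-cell 27 had in common was not tested. C06E1.12 did not pass without AVG 43, AVG 44 or AVG 45 (adjusted p from 0.0554 to 0.0681). C06E1.12 and fip-3 did not pass without AVE 40 and AVG 45 together, and C06E1.12, fip-3, fipr-16 and C06E1.7 did not pass without AVG 43 and AVG 45 together. None of the annotated genes within 10 kb of inx-18 was called.

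**Figure D5:**
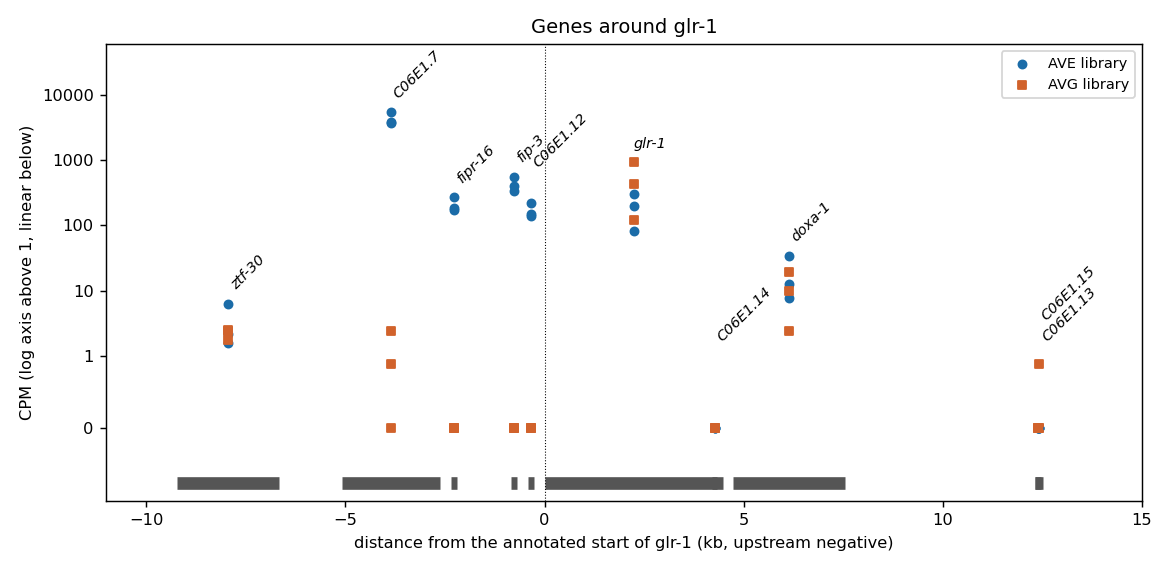
Genes around glr-1. The x axis is the distance from the annotated start of glr-1 in kb, upstream negative, the y axis is CPM, logarithmic above 1 and linear below, circles are AVE and squares AVG libraries placed at each gene's middle, and dark bars are gene spans. The 4 genes upstream from C06E1.12 to C06E1.7 lie at 141 CPM or more in every AVE library and at 2.41 CPM or less in every AVG library, while glr-1 overlaps.

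The called genes were also set against the 8 sorted neuron types of the series. AVE had the highest mean of the 8 types in 827 of the 1136 higher genes, and AVG in 574 of the 777 lower genes. The pan-neuronal mean lay between AVE and AVG in 723 and 593 of them. For the 233 higher genes in which it lay above both, among them cha-1, unc-17, cho-1 and eat-4, both types lay below the pan-neuronal mean. The genes were called on this contrast, which itself favours a high mean in the higher type. The same counts over all genes tested were not made, so these counts are a description.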

How the data were processed

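The authors deposited raw read counts per gene, whole numbers, for 37 libraries and 30631 genes. The tools named per the submitters' processing notes are STAR, SAMtools and featureCounts. Their versions, the strand setting, the genome build and the handling of duplicates are not stated in the labels. The table's name carries annotation release WS274. Positions and classes come from WBcel235 by gene identifier (30584 genes matched). Sequences were not used here.

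Counts were fitted with edgeR 4.0.16 (R 4.3.3), 1 quasi-likelihood fit of all 37 libraries with TMM factors, filterByExpr by group and the contrast AVE minus AVG, with Benjamini-Hochberg adjustment over 15181 genes. The SE is the difference over the root of F. Shares of counts were tested by exact permutation (SciPy 1.17.1) and adjusted over 13 lists. Replicates differed beyond counting noise, with chi-square per degree of freedom from 5.56 to 20.2, and were all kept. Alternatives were 12 planned and 3 added after seeing the data, and used edgeR and DESeq2 1.42.0.

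Named genes are the 15 highest and lowest by log2 difference, over all genes and over named protein-coding ones (adjusted p under 0.05, 20 CPM or more in the higher type, no overlap), all markers, up to 6 called members per list and direction at 20 CPM or more, list members at 100 CPM or more, and genes within 10 kb of glr-1 or inx-18. Members and lists were chosen with earlier results of these data known. The genes tbh-1 and gcy-13, and others so marked, were chosen after their values were seen.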

Additional observations from a re-analysis of the deposited data

How the results depend on the processing

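Against 1913 genes called (1136 higher and 777 lower in AVE), 736 were called without AVE 40 and AVG 45 (446 higher and 290 lower) and 660 without AVG 43 and AVG 45 (290 higher and 370 lower). With the length trend removed 668 were higher. With 1 library left out, 1116 to 1820 were called, with 646 to 1024 higher and 470 to 796 lower. None of the 1913 was called in the opposite direction in any of the 15 alternatives. Without AVG 43, the median difference of all genes was 0.347, and without AVG 43 and AVG 45 it was 0.333, and the differences of those fits include that shift. Of 286 named genes with a call, 115 kept it in all alternatives and 171 did not in at least 1. The length trend ended 56 calls and the fit of the 6 libraries alone 26 of 281. In 1 run of neighbours on chromosome X, Y62H9A.3 and ule-5 had high values in AVG 43 alone: with 1 library left out the differences ran from -6.1 to 0.05 for Y62H9A.3 and from -5.35 to 0.45 for ule-5, and ule-5 stood at 0.97 without AVG 43 and AVG 45. The unadjusted p was under 0.05 for 3739 genes.

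Some shares of counts differed between the types with either sign when 1 library was left out, in percentage points AVE minus AVG: -0.145 to 0.0193 for intestine, -0.0341 to 0.0297 for germline, -0.00828 to 0.00164 for sperm, -0.00176 to 0.000534 for coelomocyte and -0.000851 to 0.00453 for glia genes. The cause was not tested. No paired analysis was made, because the labels do not say which AVE and AVG libraries, if any, belong together. Depth was lowest in AVG 44 and AVG 45, at 435104 and 533512 counts, which limits what can be seen of low genes in AVG.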

Other observations

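Genes outside the lists, named here after their values were seen, also stood apart. cex-1, of a calexcitin-type calcium-binding protein, had 426, 373 and 417 CPM in AVE, against 4542, 4285 and 5002 CPM in AVG (-3.51 ± 0.57, adjusted p = 4.58e-05). The transmembrane channel-like gene tmc-1 had 22.8, 47.9 and 46.9 CPM in AVE, against 602, 1874 and 3931 CPM in AVG (-5.76 ± 0.62, adjusted p = 6.7e-08), and the stomatin-like gene sto-2 had 19.5, 25.2 and 18 CPM in AVE, against 266, 452 and 619 CPM in AVG (-4.41 ± 0.51, adjusted p = 2.13e-07). The adenosine receptor-like gene ador-1 had 39, 50.4 and 33.6 CPM in AVE, against 1301, 1748 and 2354 CPM in AVG (-5.46 ± 0.83, adjusted p = 1.58e-05). The groups lay apart in all 4. The receptor guanylate cyclase gene gcy-28 was lower too, at 152, 219 and 326 CPM in AVE, against 481, 1090.3 and 2111 CPM in AVG (-2.40 ± 0.41, adjusted p = 8.15e-05).

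Several gene families, grouped by the shared stem of their symbols, were called mostly in 1 direction, against 7.48% higher and 5.12% lower of all genes tested. They were picked after the values of all such families were seen, so their counts are a description. Of 25 nuclear pore (npp) genes 10 were higher in AVE and 0 lower, with 1 to 11 higher over the 15 alternatives. Of 24 translation initiation factor (eif) genes 13 were higher (3 to 15), and of the mitochondrial ribosomal protein genes 14 of 40 mrpl genes (2 to 14) and 9 of 29 mrps genes (0 to 9), with none lower in any alternative. Of 65 F-box (fbxa) genes 12 were higher and 1 lower, with 0 to 12 higher over the alternatives. With the length trend taken out, 7 npp, 5 eif, 3 mrpl, 2 mrps and 9 fbxa genes were higher. In contrast, the FMRFamide peptide receptor-like (frpr) genes gave 3 higher and 7 lower of 20, with 5 to 9 lower over the alternatives, and the arrestin-domain (arrd) genes 1 higher and 4 lower of 18 (3 to 5 lower). Of 143 collagen (col) genes 2 were higher and 14 lower, with 0 to 38 lower. In the fit with the length trend taken out, 9 frpr, 5 arrd and 28 col genes were lower.

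Genes called with a difference past 2 on the log2 scale formed 35 runs of at least 3 neighbours, each in 1 direction and with gaps of at most 10 kb, 18 of them higher and 17 lower in AVE, with 128 genes in all. One run on chromosome II held nmr-1, F56D1.12, F56D1.13 and cex-1. Another on chromosome X held vps-41, ags-3, ift-81, sto-2 and F32A6.11, where ift-81 overlaps ags-3 and F32A6.11 lies inside sto-2. Other runs also counted overlapping genes as separate neighbours. The lower run with Y62H9A.3 and ule-5 was high in AVG 43 alone. A run of 10 genes on chromosome III included fbxa-37, fbxa-50, fbxa-35 and fbxa-79, all higher. The 4 genes upstream of glr-1 were a run as well. How many runs the genome's operons and duplicated genes would give was not tested.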
